A study of Gallus gallus with 23 samples.

Results

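The enzymes of glycolysis and lactate formation followed here in chicken liver were GPI, PFKL, TPI1, GAPDH, PGK2, PGAM1, ENO1, PKLR, LDHA and LDHB. They were taken by symbol, as every spot that the array's annotation assigns to one of these 10 genes, out of 6428 named genes on the array. Earlier results of these data were known when the set was chosen. The 10 genes held 32 of the 10601 named spots, and all 10 had enough values to be tested. Hepatic RNA of 23 broiler cockerels (Ross x Cobb) had been hybridised on 2-colour spotted arrays, 1 array per bird, against a common pool of liver RNA from 6 control birds 5 weeks old. At 29 days of age every bird had received an osmotic pump under the skin, and livers were taken after 6 days. The vehicle group (VC, 6 arrays) was given a mixture of DMSO and propylene glycol. The CS group (6 arrays) was given corticosterone, the main glucocorticoid of birds, at 600 micrograms per kg per day. The T3 group (6 arrays) was given triiodothyronine, the active thyroid hormone, at 192 micrograms per kg per day, and the CS+T3 group (5 arrays) was given both hormones at these doses. The labels do not tie birds to pens or rooms, and no array date or slide is given, so no batch could be examined.

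Glycolysis splits glucose into pyruvate in the cytosol. Its first steps spend ATP to make fructose bisphosphate and cleave it into triose phosphates, and its later steps oxidise the triose phosphates and give ATP and NADH back. Most of the enzymes also run in the opposite direction when the liver makes glucose from lactate and amino acids, while the steps of phosphofructokinase and pyruvate kinase are bypassed by other enzymes. Glucocorticoids are known to promote hepatic glucose production, and thyroid hormone is known to raise the turnover of both glucose and fat in liver.

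Each value is a log2 ratio between a bird and the pool, so it shows relative change of 1 gene and not its abundance, and ratios of different genes do not rank their levels. Which channel was the numerator is not stated in the sources used here. Bird over pool was assumed, because the sample titles name the bird first and the pool second. The labels give the dyes, Alexa Fluor 555 for the bird and 647 for the pool, but not which was divided by which. If the pool was the numerator, every direction below turns round. In 6 of the 23 arrays some or most values sat a few spots early along the printing order and were moved back before the analysis. Of these, VC replicate 4, CS replicate 3, T3 replicate 3 and CS+T3 replicate 1 were misplaced over most spots, and their correlation with the other arrays rose from between -0.04 and 0.02 to between 0.339 and 0.5. T3 replicate 1 and CS+T3 replicate 2 were misplaced in part, and their correlation rose from 0.103 to 0.162 and from 0.446 to 0.480. That of T3 replicate 1 stayed the lowest of all 23 arrays. T3 replicate 1 also gave the highest T3 value of ENO1 (1.05), PGK2 (0.73) and PFKL (0.64). The lags were chosen by how well values matched these same other arrays, so the rise in correlation is no separate check. On the 4 arrays misplaced over most spots, the pattern of spots without a value matched the other arrays in place (r = 0.791 to 0.840). At the lag this pattern matched less (r = 0.054 to 0.206). Values and empty spots thus differed on the shift, and why was not tested. Arrays carried 8925 to 13721 values of 19200 spots, and the number of arrays limits the precision. CS replicate 5, T3 replicate 5 and CS+T3 replicate 2 stood apart from their groups. When each array's deviation from VC was regressed, across features, on the mean CS effect of the other CS arrays, CS replicate 5 had a slope of 0.385 against 0.735 to 1.187 for the other CS arrays. T3 replicate 5 had a slope of 0.418 against -0.158 to 0.108 for the other T3 arrays. CS+T3 replicate 2 had one of 0.457 against -0.087 to 0.231 for the other CS+T3 arrays. Where leaving out CS replicate 5 or T3 replicate 5 changed the call of an enzyme, the result is given with and without the array. CS+T3 replicate 2 was kept in the fit that left out both of these arrays.

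Most of the differences that passed were found where corticosterone and triiodothyronine were set against each other. Between CS and T3, 4 of 10 enzymes were lower in CS (ENO1, GAPDH, LDHB and GPI) and none was higher, at a limma adjusted p of at most 0.05 over all 9244 features tested. Of all features, 7.66% passed in this comparison and 5.11% passed as lower in CS. Between CS and VC, 1 of 10 enzymes passed, ENO1, which was lower in CS, where 4.08% of all features passed and 3.09% as lower. Between CS+T3 and CS, 2 of 10 passed, ENO1 and GPI, both higher in CS+T3, where 2.57% of all features passed and 2.23% as higher. The median log2 difference of the 10 enzymes was -0.53 between CS and T3 (all features 0.05), -0.22 between CS and VC (all features 0.03) and 0.42 between CS+T3 and CS (all features -0.04). The comparisons share groups, so these counts are not independent of each other. In a tissue homogenate, a lower value from fewer cells of a type cannot be told apart from less RNA per cell.

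**Figure D1:**
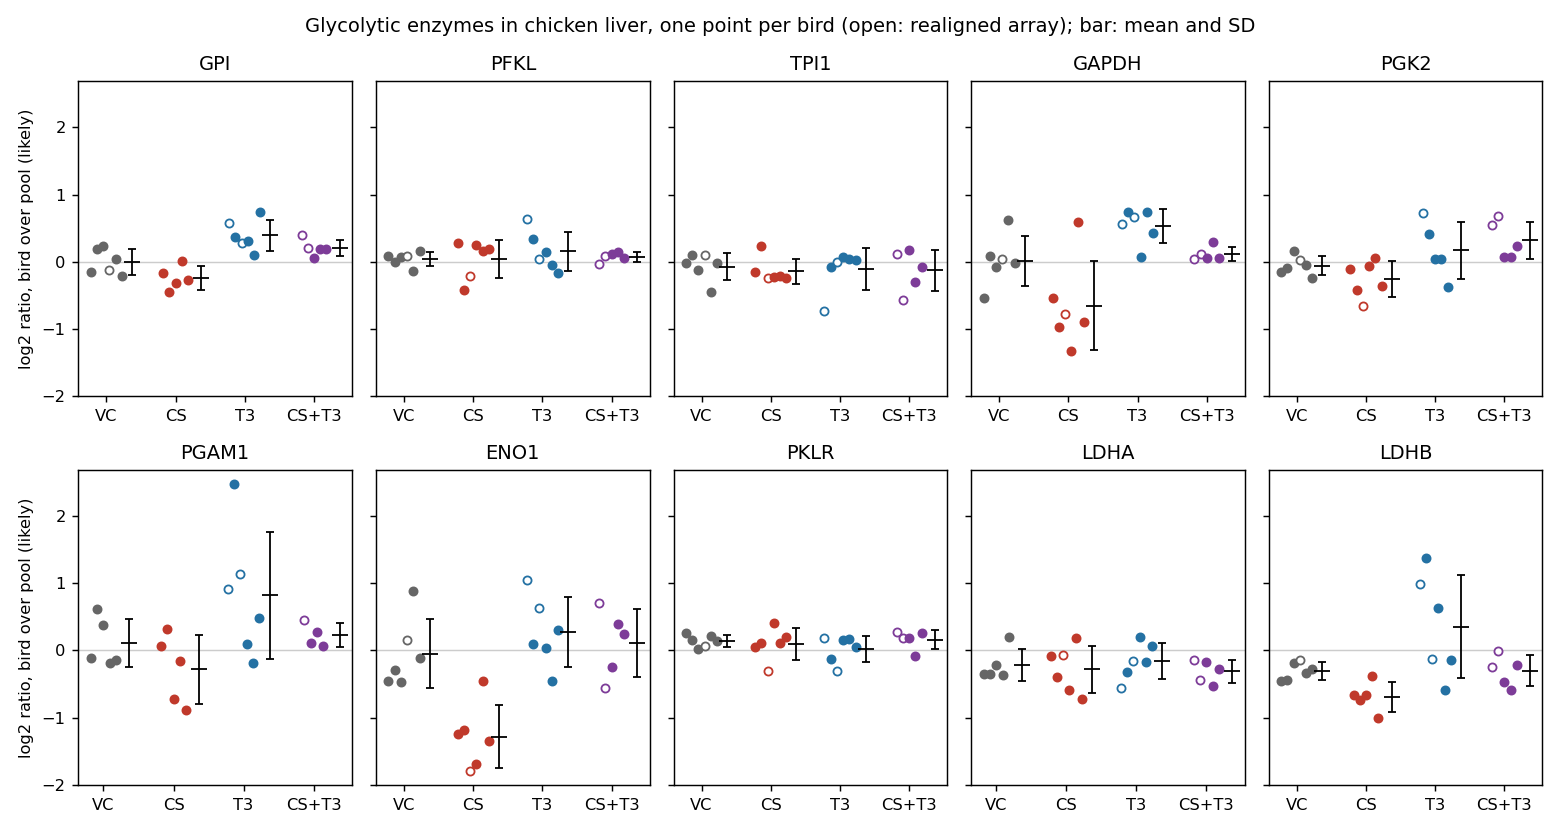
Log2 ratio of each enzyme (vertical axis, bird over pool as the assumed direction) in every bird of the 4 groups (horizontal axis). Filled points are arrays used in place, open points are realigned arrays, and the bars give the mean and SD. ENO1 lies between -1.787 and -0.459 in the 6 CS birds, while PKLR lies between -0.304 and 0.403 over all groups.

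The largest difference between CS and T3 was in ENO1, enolase, which turns 2-phosphoglycerate into phosphoenolpyruvate. In VC its log2 ratio ranged from -0.46 to 0.88 (median -0.20), and in CS from -1.79 to -0.46 (median -1.29). In T3 it ranged from -0.45 to 1.05 (median 0.20), and in CS+T3 the 5 birds had 0.70, -0.55, -0.25, 0.39 and 0.24. All 6 CS birds lay below the means of VC and T3. The CS and T3 birds did not overlap, but only narrowly (highest CS bird -0.459, lowest T3 bird -0.452). The CS birds overlapped with the VC and the CS+T3 birds. The share of all features without overlap between groups is not given here, for this or the other enzymes. The mean was -1.28 ± 0.47 (SD, n = 6) in CS and -0.05 ± 0.51 (SD, n = 6) in VC, a difference of -1.24 (SE 0.27), or 2.36-fold lower in CS (limma adjusted p = 0.00871). Against T3 (0.28 ± 0.52) ENO1 in CS was 2.95-fold lower (log2 difference -1.56, SE 0.27, adjusted p = 0.00133). With both hormones (0.11 ± 0.50, n = 5) it was 2.62-fold higher than in CS (1.39, SE 0.28, adjusted p = 0.00912), and all 5 birds lay above the CS mean. The call against VC was lost with the values as deposited, without the 4 arrays misplaced over most spots and with quantile normalization (adjusted p from 0.00124 to 0.142 over the alternatives), and the call between CS+T3 and CS was lost in these and without all 6 misplaced arrays (0.00107 to 0.109).

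GAPDH, glyceraldehyde-3-phosphate dehydrogenase, oxidises the triose phosphate and makes the NADH of glycolysis. In VC it ranged from -0.55 to 0.62 (median 0.01), in CS from -1.34 to 0.59 (median -0.83) and in T3 from 0.07 to 0.74 (median 0.61). The 5 CS+T3 birds had 0.04, 0.11, 0.06, 0.29 and 0.05. In CS, 5 of 6 birds lay at or below -0.53, and CS replicate 5 alone was positive, at 0.59, inside the T3 range. GAPDH was 2.27-fold lower in CS (-0.65 ± 0.66, n = 6) than in T3 (0.53 ± 0.26, n = 6), with a log2 difference of -1.18 (SE 0.22, adjusted p = 0.0025). Neither the difference of -0.67 (SE 0.22) between CS and VC nor that of 0.76 (SE 0.23) between CS+T3 and CS passed the test (adjusted p = 0.0942 and 0.0748). Without CS replicate 5 both did, at -0.92 (adjusted p = 0.00137; 0.00142 to 0.873 over the other alternatives) and 1.01 (adjusted p = 0.00133; 0.0011 to 0.379 over the other alternatives).

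LDHB encodes the lactate dehydrogenase subunit that predominates in heart in mammals and interconverts pyruvate and lactate. In VC it ranged from -0.45 to -0.15 (median -0.30), in CS, with 5 birds measured, from -1.01 to -0.38 (median -0.67), and in T3 from -0.59 to 1.38 (median 0.25). The 5 CS+T3 birds had -0.24, -0.004, -0.47, -0.59 and -0.22. All 5 CS birds lay below the T3 mean, but T3 replicate 5, at -0.59, lay inside the CS range, so the groups overlapped. LDHB was 2.06-fold lower in CS (-0.69 ± 0.22, n = 5) than in T3 (0.35 ± 0.76, n = 6), a log2 difference of -1.05 (SE 0.24, adjusted p = 0.0113). This call was lost with quantile normalization and in a fit of these groups alone (adjusted p from 0.000846 to 0.0844 over the alternatives). It held in each of 23 fits without 1 array (limma adjusted p from 0.00126 to 0.0353). Against VC the difference of CS was -0.39 (SE 0.24, adjusted p = 0.392) and that of T3 was 0.66 (SE 0.23, adjusted p = 0.966).

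GPI, glucose-6-phosphate isomerase, makes fructose 6-phosphate at the second step of the pathway. It ranged from -0.21 to 0.24 in VC (median -0.04), from -0.46 to 0.01 in the 5 CS birds measured (median -0.27) and from 0.10 to 0.74 in T3 (median 0.33). The 5 CS+T3 birds had 0.39, 0.20, 0.06, 0.20 and 0.19. The CS birds overlapped with neither the T3 nor the CS+T3 birds, but only narrowly (highest CS bird 0.013, lowest T3 bird 0.095, lowest CS+T3 bird 0.057). CS replicate 3 had no value of GPI. GPI was 1.55-fold lower in CS (-0.24 ± 0.18, n = 5) than in T3 (0.39 ± 0.23, n = 6), a log2 difference of -0.63 (SE 0.12, adjusted p = 0.00225). It was 1.36-fold higher in CS+T3 (0.21 ± 0.12, n = 5) than in CS (0.45, SE 0.12, adjusted p = 0.0498), on the edge of the threshold. That call held in 4 of 15 alternative settings and in 5 of 23 fits without 1 array (adjusted p from 0.0123 to 0.228).

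PGAM1 and PGK2 had lower means in CS than in T3 and CS+T3, but these differences did not pass the test. PGAM1, phosphoglycerate mutase, shifts the phosphate group between carbons of phosphoglycerate. It had 2.48 in T3 replicate 2 and between -0.18 and 1.14 in the other T3 birds, and between -0.89 and 0.32 in the 5 CS birds measured, with a CS minus T3 difference of -1.10 (SE 0.34, adjusted p = 0.0522). The value of 2.48 came from 1 of the gene's 2 spots, as did the values of T3 replicates 1, 3 and 5 and of CS replicates 1 and 2. The other T3 and CS birds measured had values of both spots, so the birds differed in the spots averaged. Without T3 replicate 5 the CS minus T3 difference passed the limma test, at -1.30 (adjusted p = 0.0159; 0.0087 to 0.204 over the other alternatives). It also passed without CS replicate 2 (-1.25, adjusted p = 0.0435) or T3 replicate 4 (-1.24, adjusted p = 0.034). The same held with print block medians removed, with the spot with most values and with the replicate number as a block. PGK2 is the annotation's symbol for the chicken phosphoglycerate kinase gene, for which PGK1 is a synonym in RefSeq, and the enzyme makes ATP from 1,3-bisphosphoglycerate. Its CS birds had -0.66 to 0.06 (median -0.23) and its CS+T3 birds 0.55, 0.68, 0.08, 0.07 and 0.23. These groups did not overlap, but only narrowly (highest CS bird 0.059, lowest CS+T3 bird 0.071). The difference of 0.58 (SE 0.17) had a limma adjusted p of 0.0598, and of 0.027 without CS replicate 5 (difference 0.65), 0.0312 without T3 replicate 1 and 0.0397 without T3 replicate 6 (0.0128 to 0.351 over the other alternatives). This difference also passed with arrays centred on their median, with print block medians removed and with at least 5 values in every group. With the spot with most values it passed as well. Between CS and T3, PGK2 differed by -0.43 (SE 0.17, adjusted p = 0.108), and by -0.57 (adjusted p = 0.0421) without T3 replicate 6.

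**Figure D2:**
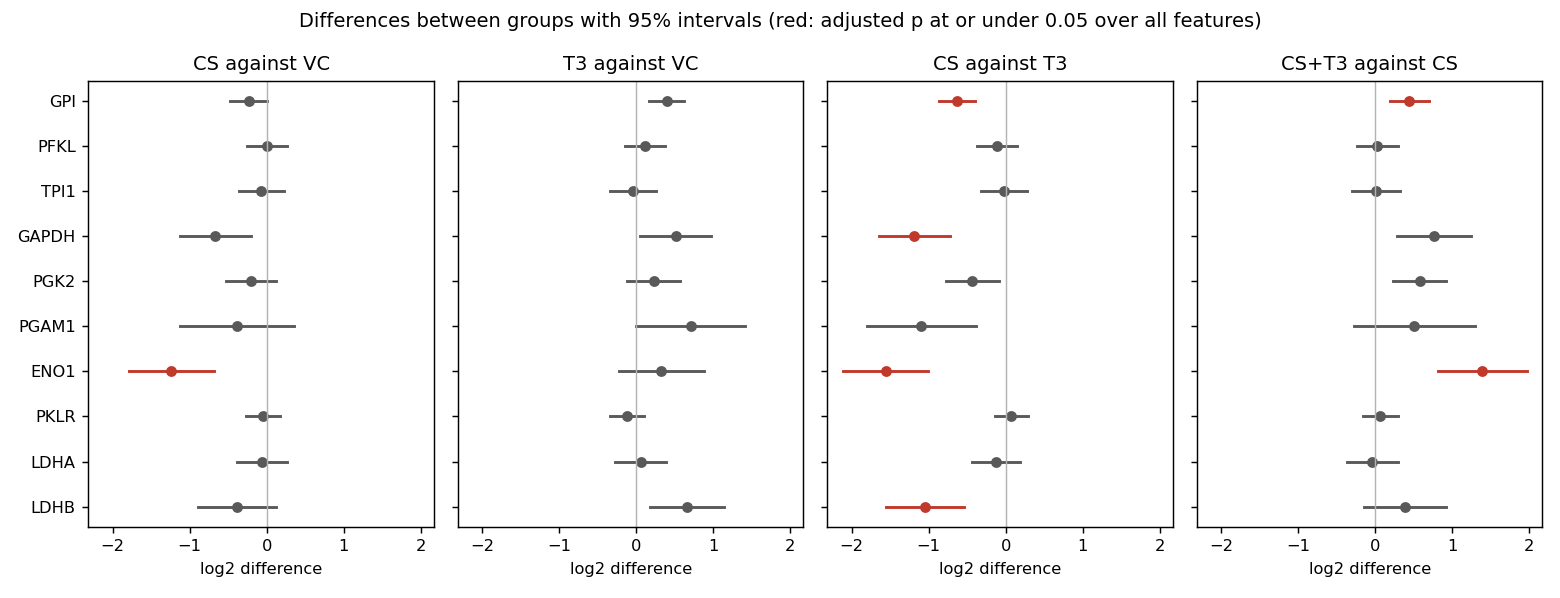
Log2 differences (points) with 95% intervals (lines) of the 10 enzymes in 4 comparisons, first group minus second; red marks an adjusted p of at most 0.05 over all features. ENO1 stands at -1.24, 0.32, -1.56 and 1.39 from left to right, while the intervals of PFKL, TPI1, PKLR and LDHA include 0 in every panel.

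PFKL, TPI1, PKLR and LDHA showed no difference past the limma test in any comparison, nor any with an unadjusted p under 0.05, for the mean of their spots. Between CS and VC, single spots of PFKL, TPI1 and PKLR had a limma p of 0.0433, 0.0115 and 0.0309. The same PKLR spot had a limma p of 0.0362 between CS and T3, and the same TPI1 spot had 0.0418 in the interaction. In each case the gene's other fitted spot had the opposite sign. PFKL, the liver type of phosphofructokinase, catalyses the committed step of glycolysis. It differed by -0.11 between CS and T3 (95% interval -0.37 to 0.15), and its group medians lay between 0.08 and 0.18. TPI1, triose phosphate isomerase, which interconverts the triose phosphates from the cleaved sugar, differed by -0.03 (-0.32 to 0.27). The 2 spots of TPI1 had opposite signs, at -0.27 and 0.08, and at -0.43 and 0.30 between CS and VC. PKLR, a pyruvate kinase, makes pyruvate and ATP in the last step. RefSeq lists PKM and PKM2 as synonyms of this chicken entry, so the isoform measured is uncertain. It differed by 0.07 (-0.14 to 0.29), and its 2 spots had opposite signs, at 0.28 and -0.08. LDHA, the lactate dehydrogenase subunit that predominates in muscle in mammals, differed by -0.12 (-0.43 to 0.19), with group means from -0.31 ± 0.17 in CS+T3 (n = 5) to -0.16 ± 0.27 in T3 (n = 6). Whether these 4 genes differed in their response from ENO1, GAPDH, LDHB and GPI was not tested.

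Differences between CS and T3 were also fitted spot by spot, where a spot is 1 printed cDNA clone. Both ENO1 clones gave low values, -1.40 (SE 0.26) and -1.58 (SE 0.39), and so did the 2 GPI clones with enough values, -0.61 (SE 0.13) and -0.69 (SE 0.15). Another GPI clone had values on only 4 arrays and was not fitted, but it entered the GPI means of those arrays. For LDHB the clones differed in size, at -0.60 (SE 0.18) and -1.64 (SE 0.40). Those of PGK2 gave -0.495 (SE 0.16) and -0.31 (SE 0.3). PGAM1 had 1 spot with enough values, at -1.75 (SE 0.38). GAPDH had 11 spots with values, all of them negative, from -1.79 to -0.05. Of these, 9 carried clones of the same accession, of which 8 lay between -1.79 and -1.19 and 1 at -0.50 (SE 0.20). The other 2 GAPDH clones gave -0.35 (SE 0.20) and -0.05 (SE 0.19). When GAPDH was taken from the single spot with most values, its difference was -1.19, close to that of the spots' mean, but the call was lost (adjusted p = 0.114; 2.91e-05 to 0.0497 over the other alternatives). The SD of the repeated clone over spots of the same array had a median of 0.398 (range 0.165 to 0.812). It can include differences between spots that recur across arrays as well as technical error. This median was 0.369 on arrays used in place and 0.458 on realigned arrays. With the values as deposited it was 0.312 on the realigned arrays, so the copies lay no closer together after realignment, and the cause was not tested. The clone's mean over spots was -0.73 ± 0.77 in CS, 0.61 ± 0.30 in T3, 0.00 ± 0.46 in VC and 0.09 ± 0.13 in CS+T3 (SD over birds, n = 6, 6, 6 and 5).

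**Figure D3:**
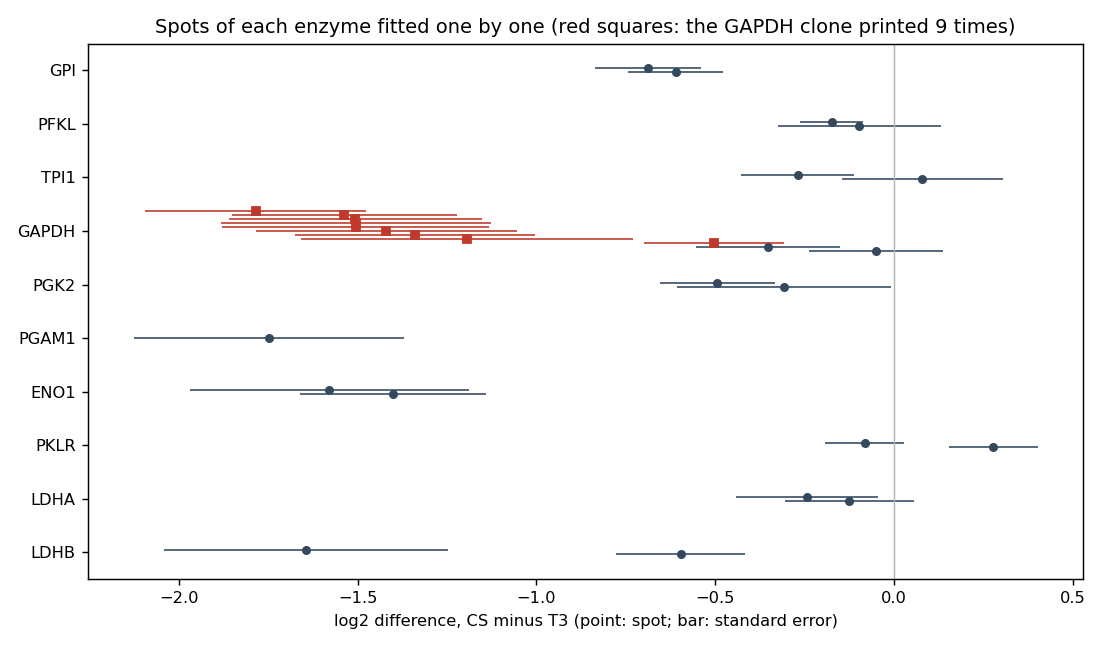
Log2 difference between CS and T3 (horizontal axis, CS minus T3; bars are standard errors) for each fitted spot of each enzyme; red squares are the GAPDH spots of the accession printed 9 times. The GAPDH spots spread from -1.785 to -0.051, and both ENO1 spots lie below -1.40.

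None of the 10 enzymes passed the limma test between T3 and VC, where 0.0% of all features passed. At an unadjusted p under 0.05, 3 enzymes and 432 of 9244 features differed. The largest differences of T3 from VC were in PGAM1 (0.71, SE 0.34), LDHB (0.66, SE 0.23), GAPDH (0.52, SE 0.22) and GPI (0.40, SE 0.11), all with an adjusted p of 0.966. For GPI and for GAPDH, 6 of 6 T3 birds exceeded the mean of VC, and the groups overlapped. Between CS+T3 and VC none of the 10 passed the limma test (0.0541% of features passed, 1 enzyme and 408 features at an unadjusted p under 0.05). The differences ranged from -0.10 in LDHA to 0.38 in PGK2, and ENO1 differed by 0.15 (SE 0.28, 95% interval -0.43 to 0.73). Between CS+T3 and T3 none passed the limma test (0.0433% of features, 1 enzyme and 394 features at an unadjusted p under 0.05), with LDHB lowest at -0.66 (SE 0.24, adjusted p = 0.998). The interaction asks whether the T3 effect differed with and without CS. None of the 10 passed the limma test there (0.0865% of features, 1 enzyme and 889 features at an unadjusted p under 0.05). ENO1 had the largest interaction, 1.06 (SE 0.39, adjusted p = 0.409).

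The mean of the 10 enzymes, each centred on its own mean over arrays, gave 1 value per bird, taken over the enzymes with a value in that bird. CS replicate 3 (-0.52) had no value of GPI, PGAM1 and LDHB. VC replicate 4, T3 replicate 3 and CS+T3 replicate 1 also lacked values. The mean lay between -0.52 and -0.23 in 5 of the 6 CS birds and at 0.02 in CS replicate 5. It lay between 0.17 and 0.56 in 5 of the 6 T3 birds and at -0.01 in T3 replicate 5. VC birds ranged from -0.16 to 0.06 and CS+T3 birds from 0.01 to 0.24. CS replicate 5 and T3 replicate 5, which stood apart over all features, also lay nearest to 0 within their groups for these enzymes. Without both arrays, 2 enzymes passed between CS and VC, 5 between CS and T3 and 4 between CS+T3 and CS, while the features that passed rose from 377 to 660, from 708 to 1426 and from 238 to 722. Both arrays were picked for slopes on the CS effect unlike those of their groups. Wider differences without them follow from that choice, so the rise is no separate support.

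Within groups the enzymes varied together only in part. After group means were removed, 30 of the 45 pairs of enzymes had a positive Pearson correlation over arrays, with a median r of 0.117. The highest were between PGK2 and LDHB (0.682, 21 arrays), PFKL and PGK2 (0.64, 22 arrays) and PGAM1 and LDHB (0.607, 20 arrays), and the lowest was between PGAM1 and PKLR (-0.566). Genes on an array share its RNA, labelling and any realignment, so these values are descriptions. Of 4524 other named genes with values on at least 18 arrays, those most like the mean of the 10 enzymes over all arrays were SELENOP1 (r = 0.919, 19 arrays), GINS2 (0.901, 22 arrays), RCHY1 (0.898, 22 arrays), C9ORF58 (0.892, 23 arrays) and ACSL1 (0.886, 22 arrays).

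The surrounding pathways were read from 5 lists with 79 genes, of which 48 were on the array and 39 had enough values. Between CS and T3, 5 of the 39 were lower and 2 higher in CS, and between CS+T3 and CS 2 were higher, beside 7.66% and 2.57% of all features called. Of 12 genes for other glycolytic steps, their regulators and the transport of glucose and lactate, none passed the limma test in any of the 7 comparisons (4 of 84 values had an unadjusted p under 0.05). Among them was PFKFB1, which sets the level of fructose 2,6-bisphosphate in liver, with a mean of 0.41 ± 0.60 in T3 and 0.07 ± 0.30 in CS (difference -0.34, SE 0.24, adjusted p = 0.389). ENO3 was not analysed here, and PKM was measured only through the PKLR entry.

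Of 10 genes of gluconeogenesis and glycogen, 3 were lower in CS than in T3. FBP1, fructose-1,6-bisphosphatase, which bypasses phosphofructokinase on the way to glucose, was at -0.56 ± 0.38 in CS (n = 6) and 0.12 ± 0.31 in T3 (n = 5), a difference of -0.68 (SE 0.18, adjusted p = 0.0254). PCK2, the mitochondrial phosphoenolpyruvate carboxykinase, was at 0.20 ± 0.12 in VC, -0.32 ± 0.26 in CS, 0.31 ± 0.27 in T3 and 0.50 ± 0.26 in CS+T3. It was lower in CS than in VC by 0.52 on the log2 scale (-0.52, SE 0.13, adjusted p = 0.0269) and than in T3 (-0.63, SE 0.13, adjusted p = 0.00566), and higher in CS+T3 than in CS (0.82, SE 0.14, adjusted p = 0.00323). PGM1, phosphoglucomutase, which links glycogen to glucose 6-phosphate, differed by -0.38 (SE 0.11, adjusted p = 0.0401). PCK1, the cytosolic form of the carboxykinase, differed by -0.10 (SE 0.18, adjusted p = 0.765).

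Of 10 genes for the fates of pyruvate and triose phosphate, 2 were higher and 1 lower in CS than in T3. PDK3, a kinase that switches pyruvate dehydrogenase off, was higher by 0.38 (SE 0.11, adjusted p = 0.0475), and GPD1, which makes glycerol 3-phosphate from triose phosphate, by 0.35 (SE 0.10, adjusted p = 0.0467). MPC1L, for which RefSeq lists MPC1, a subunit of the mitochondrial pyruvate carrier, as a synonym, was lower in CS than in T3 (-0.64, SE 0.18, adjusted p = 0.0295) and higher in CS+T3 than in CS (0.69, SE 0.18, adjusted p = 0.0391). AKR1B10, an aldo-keto reductase, was lower in CS than in T3 (-0.50, SE 0.13, adjusted p = 0.0201), 1 of 4 genes of fructose and other sugars. None of the 3 pentose phosphate genes measured passed the limma test in any comparison (2 of 21 values had an unadjusted p under 0.05).

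**Figure D4:**
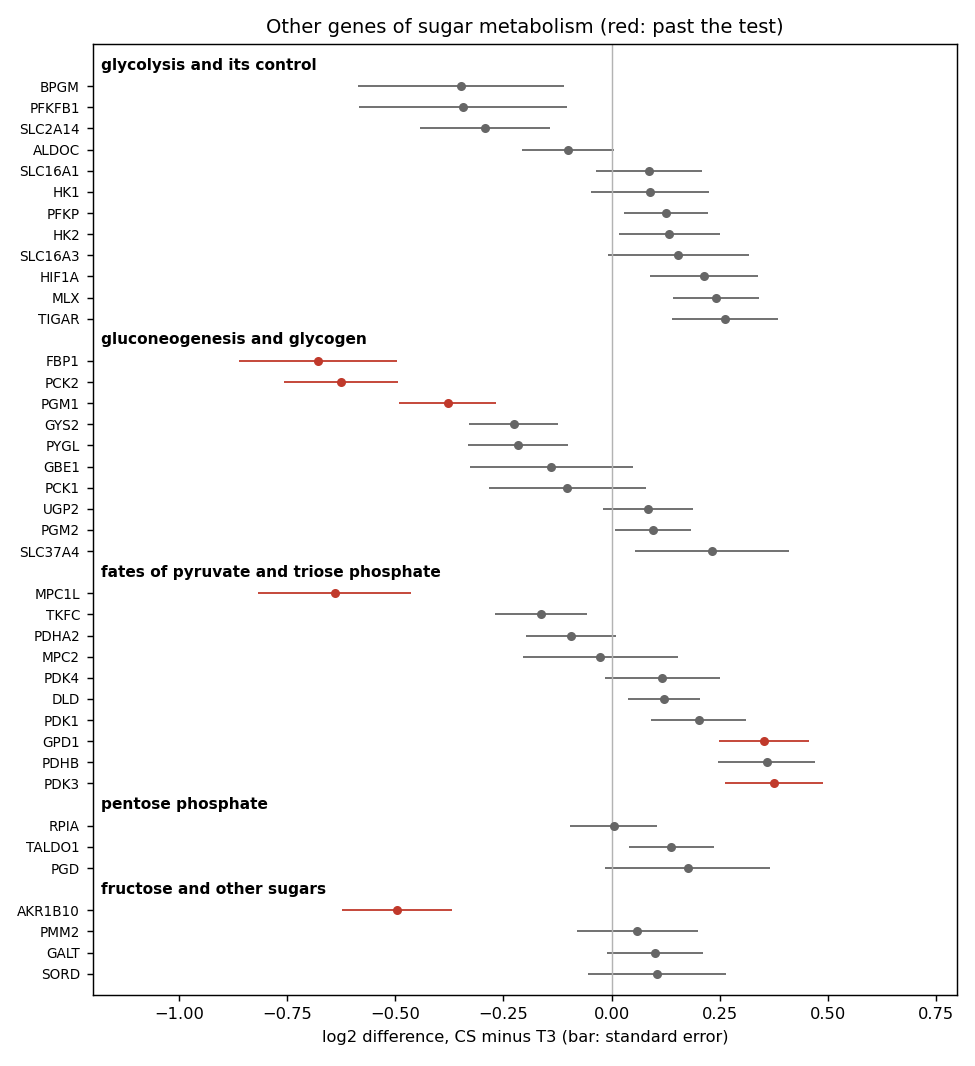
Log2 difference between CS and T3 (horizontal axis, CS minus T3; points, with standard errors as bars) of 39 further genes of sugar metabolism in 5 lists; red marks genes past the test. FBP1, PCK2, PGM1, MPC1L and AKR1B10 lie to the left at -0.68 to -0.38, and GPD1 and PDK3 to the right at 0.35 and 0.38.

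Some markers of liver cell types also differed between the groups. Of all features, 4.08% passed between CS and VC, 7.66% between CS and T3 and 2.57% between CS+T3 and CS. Of 13 hepatocyte markers, mostly secreted plasma proteins, 5 were lower in CS than in VC (TTR, F2, FGA, FGB and AMBP, median of the list -0.81). Against T3, 6 were lower in CS (these 5 and AHSG) and 1, FGG, was higher (median -0.57). Between CS+T3 and CS, 2 were higher in CS+T3 (F2 and AMBP, median 0.60). The mean of the 13 per array ranged from -0.75 to -0.11 in CS and from 0.12 to 0.31 in VC. It ranged from -0.21 to 0.51 in T3 and from -0.12 to 0.24 in CS+T3. Of 10 leukocyte markers 3 were lower in CS than in T3 (CD74, CYBB and MARCO), while the median of the list was -0.07. Their means per array were -0.27 to 0.09 in CS and -0.01 to 0.30 in T3. Of 6 skeletal muscle markers, only ACTA1 was lower in CS than in T3 (-1.02, SE 0.22, limma adjusted p = 0.00751), while the median of the list was 0.014. Of 4 erythrocyte markers 1 was higher in CS than in T3 (median of the list 0.06), and of 4 bile duct markers 1 was lower (median 0.005). Against VC, 2 leukocyte markers and 1 bile duct marker were lower in CS and 1 erythrocyte marker was higher. Between CS+T3 and CS, 1 leukocyte and 1 bile duct marker were higher in CS+T3 and 1 erythrocyte marker was lower. None of 5 matrix and 5 endothelial markers passed the limma test in any comparison (3 and 4 of 35 values each had an unadjusted p under 0.05). A ratio against a liver pool cannot show whether a marker is absent, and the part of these cell types in the enzymes' differences was not tested.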

How the data were processed

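Liver RNA of 23 birds was measured on spotted 2-colour cDNA arrays (19200 spots). Per the labels, 20 micrograms of each bird's RNA was labelled with Alexa Fluor 555 and the reference pool with Alexa Fluor 647. The values that the authors deposited were taken as log2 ratios. Their range (-3.863 to 4.05) was the basis for base 2, and the numerator, background correction, normalization and spot filter are not given in the sources used here, so folds depend on the base and compression of ratios could not be judged. On 6 arrays values were realigned along the printing order by dynamic programming (lags up to 40 spots), a decision that used no group but was made after the data were examined. Parts with r under 0.1 were set to missing, as was any spot with no deposited value. All spots of print blocks in which the lag changed were also set to missing. This left 6348 to 10816 values on these arrays. Spots were named from the platform annotation of GEO (2007), checked through Entrez IDs against RefSeq, and averaged per gene. Features with at least 3 values in every group (9244, of which 4834 were named genes) entered a limma fit (version 3.58.1, R 4.3.3) of group means over all 23 arrays, with empirical Bayes and Benjamini-Hochberg adjustment over all features (threshold 0.05, two-sided). Missing values were not imputed. P-values measure the spread between birds of a group, each with 1 array.

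The 10 enzymes, the gene lists and the tests were chosen with earlier results of these data known. All 10 enzymes are described, genes of the pathway lists are named if they passed in a comparison, and PKM, ENO3, FBP1 and PFKFB1 wherever measured. Of the cell type markers that passed, only some are named. RefSeq synonyms linked 7 listed symbols to array symbols, and 2 further links to other genes (PODXL and ALAS1) were dropped after the data were examined. Replicate numbers were not treated as pairs in the main fit. Over 33 pairs with the same number the median correlation of deviations was -0.025 (range -0.407 to 0.328). Of these pairs, 8 had a correlation over 0.1, so this check cannot exclude pairing. The fit was tested on simulated data. No nucleotide or protein sequence was used here.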

Additional observations from a re-analysis of the deposited data

Results flagged for a closer look

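Single birds lay far from the rest of their group in 5 of 40 combinations of enzyme and group, by a gap test on the highest and lowest value that chance passes in about 1 of 20. TPI1 was at 0.24 in CS replicate 2, against -0.24 to -0.15 in the other CS birds. TPI1 was also at -0.74 in T3 replicate 1, a realigned array, against -0.08 to 0.07 in the other T3 birds. GAPDH was at 0.29 in CS+T3 replicate 4, against 0.04 to 0.11. PKLR was at -0.086 in the same bird, against 0.18 to 0.27. LDHA was at 0.20 in VC replicate 6, against -0.36 to -0.22.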

How the results depend on the processing

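Counts of enzymes that passed were 0 in every setting run for T3 against VC, CS+T3 against VC, CS+T3 against T3 and the interaction. For CS against T3 they were 3 to 5 in 15 alternatives and 4 to 5 without 1 array. For CS against VC the count of 1 became 0 with the values as deposited, without the 4 arrays misplaced over most spots and with quantile normalization. It became 2 without both CS replicate 5 and T3 replicate 5 (a setting chosen after seeing the data), and 1 to 2 without 1 array. For CS+T3 against CS the count of 2 became 0 with the values as deposited, without the 4 or the 6 misplaced arrays and with quantile normalization. It became 1 with at least 1 value in every group, with only the groups compared, with array weights, with robust empirical Bayes and with the replicate number as a block. Without both CS replicate 5 and T3 replicate 5 it became 4, and without 1 array 1 to 4. The count rose with arrays centred on their median and with at least 5 values in every group, where PGK2 also passed. It also rose with print block medians removed, where PGK2 and GAPDH passed and GPI did not. With the spot with most values, PGK2 passed in place of GPI. With the replicate block, 1 enzyme passed for CS against VC and 5 for CS against T3. Features called ranged from 72 to 801 for CS against VC, from 232 to 1426 for CS against T3 and from 5 to 722 for CS+T3 against CS. They ranged from 0 to 30 for CS+T3 against VC, from 0 to 11 for CS+T3 against T3 and from 0 to 36 for the interaction. The cause of these changes was not tested, beyond fewer arrays or values entering some fits. Of 2643 enzyme values from refits, 117 had the opposite sign to the reported value, all where neither value passed the test. The signal over background of the spots is unknown, as are slide and batch, and at most 6 birds per group limit what small differences could be found.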
